A study of Mus musculus with 6 samples.

Results

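Direct pathway neurons, also called D1 neurons after their dopamine receptor, are 1 of the 2 main classes of projection neuron in the striatum. They are GABAergic, carry the D1 dopamine receptor and release the peptides substance P and dynorphin, and their axons run to the output nuclei of the basal ganglia. Their counterparts of the indirect pathway carry the D2 dopamine receptor and the adenosine receptor encoded by Adora2a and release enkephalin. In D1 neurons, dopamine raises cyclic AMP through the G protein subunit encoded by Gnal and the adenylyl cyclase encoded by Adcy5, and DARPP-32, encoded by Ppp1r1b, relays the signal.

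Nuclei were assigned to the class by a fixed rule on raw UMI counts (a UMI marks 1 captured RNA molecule), applied to all 6 libraries. Kept barcodes had 500 or more detected genes and no more than 5% mitochondrially encoded UMIs. It then needed at least 4 UMIs in sum over Rgs9, Adcy5, Pde1b, Gng7, Ppp1r1b and Pde10a, genes shared by striatal projection neurons. It needed at least 2 UMIs over Drd1, Tac1 and Pdyn, and more than 2 times the sum over the indirect pathway genes Drd2, Adora2a, Penk and Gpr6. At most 1 UMI was allowed over Otof, Tshz1 and Col11a1, and at most 1 over the glutamate transporters Slc17a7 and Slc17a6. The rule found 1950 nuclei among 30840 kept of 39752 barcodes. The mirrored rule, with the direct and indirect pathway genes exchanged, gave 1819 D2 nuclei for comparison. The nuclei were thus chosen by the levels of these 18 genes, which are described below and were left out of the tests between classes. Those abundant enough stayed among the genes tested between genotypes.

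The libraries came from frontal lobe tissue of 6 Tg-SwDI mice, 3 wild type for Trem2 (SwDI/TWT) and 3 Trem2 knockouts (SwDI/TKO). Tg-SwDI mice express a human APP transgene with the Swedish, Dutch and Iowa mutations from a Thy1 promoter, which is active in neurons, and all 6 mice carry it. Trem2 encodes a receptor of microglia, and no mice without the transgene were used here. Age and sex are not given in the labels, and the frontal lobe label does not state how much striatum each sample held. The libraries held 5220 to 8095 barcodes each, where the series states 5700 to 8100 nuclei, and 11493087 to 51317961 UMIs. Barcodes that occurred in 2 libraries numbered 8 to 18 for each pair, and none of them was a D1 nucleus in both. Trem2 RNA was not absent from the knockout libraries: it gave 205, 164 and 135 UMIs in the kept wild-type nuclei and 147, 116 and 71 in the kept knockout nuclei, or 20.4, 12.3 and 9.42 against 2.92, 11.2 and 5.76 raw CPM (UMIs of the gene as a share of all UMIs of those nuclei, on the CPM scale). Knockout replicate 2 was above wild-type replicate 3 on that scale. The sources used here do not give the deleted part of the gene, so these 3′ counts do not check the labels, and knockout means the label throughout. In D1 nuclei Trem2 gave 8, 17 and 2 UMIs in the wild-type mice and 0, 1 and 2 in the knockouts.

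One library stood apart. SwDI/TKO replicate 1 was counted with Cell Ranger 7.0.0 and the other 5 with 6.1.2, and its D1 nuclei held a median of 7593 UMIs against 2826 to 3185 in the others. Malat1, an abundant nuclear noncoding RNA, made up 87255 raw CPM in its D1 nuclei and 192329.6 to 341901 in the others. The software version and this mouse cannot be told apart, so results that rest on this library are given with and without it.

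The promoters of 4 genes that mark the class are shown because the comparison of D1 with D2 nuclei turns on them: the receptor and the peptide precursors used to find the nuclei, and Isl1, which the rule did not use. Each line gives the 250 bases before the most upstream RefSeq start of the gene in GRCm38.p6, 5′ to 3′ on the gene's strand. Capitals mark TGACG (the short form of the cyclic AMP response element, either strand) and CCCNNGGG (a core of sites bound by EBF factors, the same on both strands).
Drd1: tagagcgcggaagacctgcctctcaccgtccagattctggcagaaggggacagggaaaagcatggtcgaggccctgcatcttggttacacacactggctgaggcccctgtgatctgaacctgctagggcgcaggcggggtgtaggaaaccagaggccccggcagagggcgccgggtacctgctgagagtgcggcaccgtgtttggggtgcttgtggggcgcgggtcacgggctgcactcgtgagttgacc
Tac1: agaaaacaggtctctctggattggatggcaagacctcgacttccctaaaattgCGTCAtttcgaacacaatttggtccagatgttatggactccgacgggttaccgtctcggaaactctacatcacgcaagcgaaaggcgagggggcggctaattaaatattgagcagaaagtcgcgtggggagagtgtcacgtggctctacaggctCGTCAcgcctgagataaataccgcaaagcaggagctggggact
Pdyn: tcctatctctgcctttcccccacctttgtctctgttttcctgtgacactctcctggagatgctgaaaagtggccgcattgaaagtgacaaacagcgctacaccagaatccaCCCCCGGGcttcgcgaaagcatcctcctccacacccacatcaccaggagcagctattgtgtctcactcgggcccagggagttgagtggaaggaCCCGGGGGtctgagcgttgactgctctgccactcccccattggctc
Isl1: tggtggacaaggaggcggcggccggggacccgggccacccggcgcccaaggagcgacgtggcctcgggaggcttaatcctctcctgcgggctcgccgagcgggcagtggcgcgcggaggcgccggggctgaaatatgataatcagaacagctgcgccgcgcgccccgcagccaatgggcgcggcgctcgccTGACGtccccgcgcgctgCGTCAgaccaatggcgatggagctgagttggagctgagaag
The Drd1 window (chr13:54055659-54055908, minus strand) held neither motif. Tac1 (chr6:7554811-7555060, plus strand) held TGACG 2 times, Isl1 (chr13:116309689-116309938, minus strand) held it 2 times, and Pdyn (chr2:129699939-129700188, minus strand) held CCCNNGGG 2 times. Of 32851 windows of the same length in the RefSeq table, 17.8% held TGACG and 11.8% held CCCNNGGG. The complete element TGACGTCA, which contains TGACG, and the LIM homeodomain core TAATG were searched on both strands too. They stood in none of the 4 windows, and in 1.55% and 23.9% of all windows.

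D1 nuclei were found in every library. They numbered 225, 485 and 336 in SwDI/TWT replicates 1 to 3 and 135, 265 and 504 in SwDI/TKO replicates 1 to 3, which was 5.03%, 9.33% and 6.37% of kept nuclei against 1.76%, 6.36% and 12.4%. The lowest and the highest share were both in knockout libraries and the groups overlapped. The mean was 6.91% ± 2.20 (SD, n = 3) in the wild-type mice and 6.84% ± 5.33 (SD, n = 3) in the knockouts, a difference smaller than the spread between mice (2-sided exact permutation test, p = 0.9, adjusted over 4 such values p = 1.0; 3 against 3 mice cannot give less than 0.1). The mean difference changed sign without SwDI/TKO replicate 1, to 2.46 percentage points higher in the knockouts.

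Within the projection neurons, D1 nuclei made up 56.2%, 51.4% and 51.1% of D1 plus D2 nuclei in the wild-type mice and 47.0%, 46.9% and 55.0% in the knockouts. The groups overlapped. In knockout replicate 1 the share depended on the rule and on depth: it was 36.5% with a stricter rule (at least 6 UMIs of the shared genes and 3 of the direct pathway genes) and 22.9% after thinning to 1500 UMIs (22 D1 and 74 D2 nuclei), against 41.5% to 56.4% and 40.9% to 54.1% in the other 5 libraries. The means were 52.9% ± 2.88 and 49.7% ± 4.65 (SD, n = 3 each; 2-sided exact permutation test, p = 0.3, adjusted p = 1.0). When D1 nuclei also had to hold a Drd1 UMI and D2 nuclei a Drd2 UMI, an alternative added after the data had been seen, the means were 69.7% and 57.3% and the groups no longer overlapped (p = 0.1, the smallest this exact test allows). Drd2 was detected in 38.3% to 63.8% of D2 nuclei, fewer than held Penk (93.1% to 97.3%). In the wild-type mice 67 of 175, 190 of 459 and 127 of 321 D2 nuclei held a Drd2 UMI. In the knockouts 97 of 152, 151 of 300 and 219 of 412 did, a larger share in each than in any wild-type library. The part of Drd2 and Drd1 detection in the difference between these means was not tested.

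**Figure D1:**
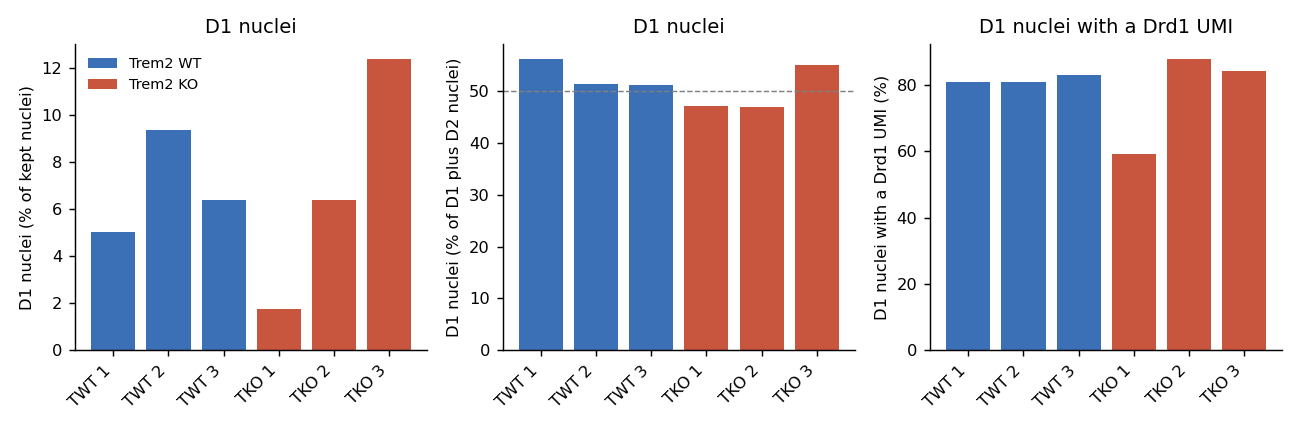
Bars give, for each of the 6 libraries (blue Trem2 wild type, red Trem2 knockout), D1 nuclei as a percentage of kept nuclei, D1 nuclei as a percentage of D1 plus D2 nuclei (dashed line, equal numbers) and the percentage of D1 nuclei with at least 1 Drd1 UMI. Knockout replicate 1 has the lowest share of kept nuclei (1.76%) and the lowest share with Drd1 (59.3%).

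The rule used Drd1, Tac1, Pdyn and the 6 shared genes, so their presence was fixed by the selection and is no check of the label; their levels still differed between libraries. Drd1 was detected in 80.9%, 80.8% and 83.0% of D1 nuclei in the wild-type mice and in 59.3%, 87.9% and 84.3% in the knockouts, at 546, 561, 525, 131, 629 and 610 raw CPM in the same order. Knockout replicate 1 was the low library on both measures although it was the deepest. After each nucleus was thinned to 1500 UMIs, which left out 1 to 19 shallower D1 nuclei per library, Drd1 was detected in 54.2% to 62.2% of D1 nuclei in the other 5 libraries and in 20.9% in that one. In D2 nuclei Drd1 was detected in 2.33% to 5.92%, and in oligodendrocyte nuclei, which should lack it, in 0.875% to 4.81%.

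Tac1, the substance P precursor, gave 853, 674 and 522 raw CPM in wild-type D1 nuclei and 268, 511 and 1166 in the knockouts, and was detected in 73.8% to 94.6% of D1 nuclei. Pdyn, the dynorphin precursor, gave 78.6, 87.1 and 77.6 raw CPM in the wild-type mice and 44.6, 50.9 and 185 in the knockouts, and was detected in 14.0% to 38.3%. By raw CPM, knockout replicate 3 was the highest library for both peptides and knockout replicate 1 the lowest, so the genotypes overlapped. By detection the lowest were wild-type replicate 3 for Tac1 and knockout replicate 2 for Pdyn. In knockout replicate 3, Tac1 was also detected in 17.1% of oligodendrocyte nuclei, at a median of 992 UMIs per nucleus, against 3.50% to 9.12% in the other libraries, and mitochondrial genes gave 2.28% of D1 UMIs against 0.622% to 1.5%. The part of free RNA in the peptide levels was not tested.

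The shared genes were detected as broadly. Pde10a, a phosphodiesterase of projection neurons, was detected in 98.0% to 100% of D1 nuclei, Rgs9, which shortens G protein signalling, in 74.1% to 90.2%, and Adcy5 in 68.9% to 86.0%. Ppp1r1b gave 210 to 296 raw CPM in 5 libraries and 37.2 in SwDI/TKO replicate 1. The indirect pathway genes were low by construction: Drd2 was detected in 0.595% to 1.51% of D1 nuclei and Penk in 4.44% to 16.3%. Around the thresholds, 450 D1 nuclei held exactly 2 UMIs over Drd1, Tac1 and Pdyn and 612 barcodes missed the rule with 1. For the 6 shared genes 61 nuclei were at 4 UMIs and 60 barcodes missed with 3.

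D1 nuclei without a Drd1 UMI were a larger share of the class in knockout replicate 1. They made up 12.1% to 19.2% of D1 nuclei in 5 libraries and 40.7% there, and 34.1% of its D1 nuclei entered through Tac1 alone, against 10.9% to 16% elsewhere. In its nuclei without Drd1, Foxp1, a transcription factor of projection neurons, was at 526 raw CPM against 1550.1 in those with Drd1. Rgs9 was at 275 against 657.

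Some genes known from interneurons were high in the same nuclei. Foxp1 above and the 4 genes here were chosen after their values had been seen, and the list of interneuron markers as a whole did not set this library apart in the same way. Erbb4, a neuregulin receptor, was at 4825 raw CPM in the nuclei without Drd1 and 1221 in those with it in knockout replicate 1. Nxph1, a neurexin ligand, was at 1316 against 318, and Lhx6, a transcription factor of interneurons from the medial ganglionic eminence, at 53.3 against 6.59. Satb1, a chromatin organizer of the same lineage, was at 115 against 19.8. In the other 5 libraries Nxph1 was also higher in the nuclei without Drd1, at 50.9 to 144 against 8.97 to 15.5, but with lower values than in this library.

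For the whole list of 8 interneuron markers (Sst, Pvalb, Vip, Lamp5, Lhx6, Npy, Nkx2-1 and Chat), the summed level in D1 nuclei was 0.0116% to 0.0170% of UMIs in the wild-type mice and 0.0138% to 0.0210% in the knockouts, highest in replicate 1, with 0 to 2 of the 8 at 0 in a library. In nuclei without and with Drd1 it was 0.0258% and 0.0173% in knockout replicate 1, close to 0.0250% and 0.0138% in knockout replicate 3. In the other 4 libraries it was 0.0122% to 0.0199% without and 0.0112% to 0.0169% with Drd1. For 5 markers of oligodendrocyte precursors the range was 0.0104% to 0.0121% in the wild-type mice and 0.00926% to 0.0404% in the knockouts, again highest in replicate 1, where the defining genes Pdgfra and C1ql1 were at 0. Markers of oligodendrocytes gave 0.0242% to 0.0315%. Olfactory bulb markers (Lgr5, Vipr2, Trh, Th, Synpr and Eomes) gave 0.00281% to 0.00680% in the wild-type mice and 0.00547% to 0.0147% in the knockouts. Microglia markers gave 0.00446% to 0.00726% and 0.00405% to 0.0115%. Both lists were highest in knockout replicate 1. Those of astrocytes, vessels and cortical excitatory neurons were not. The part of other cell types in the results below was not tested, and counts are repeated without replicate 1 and for nuclei with Drd1.

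**Figure D2:**
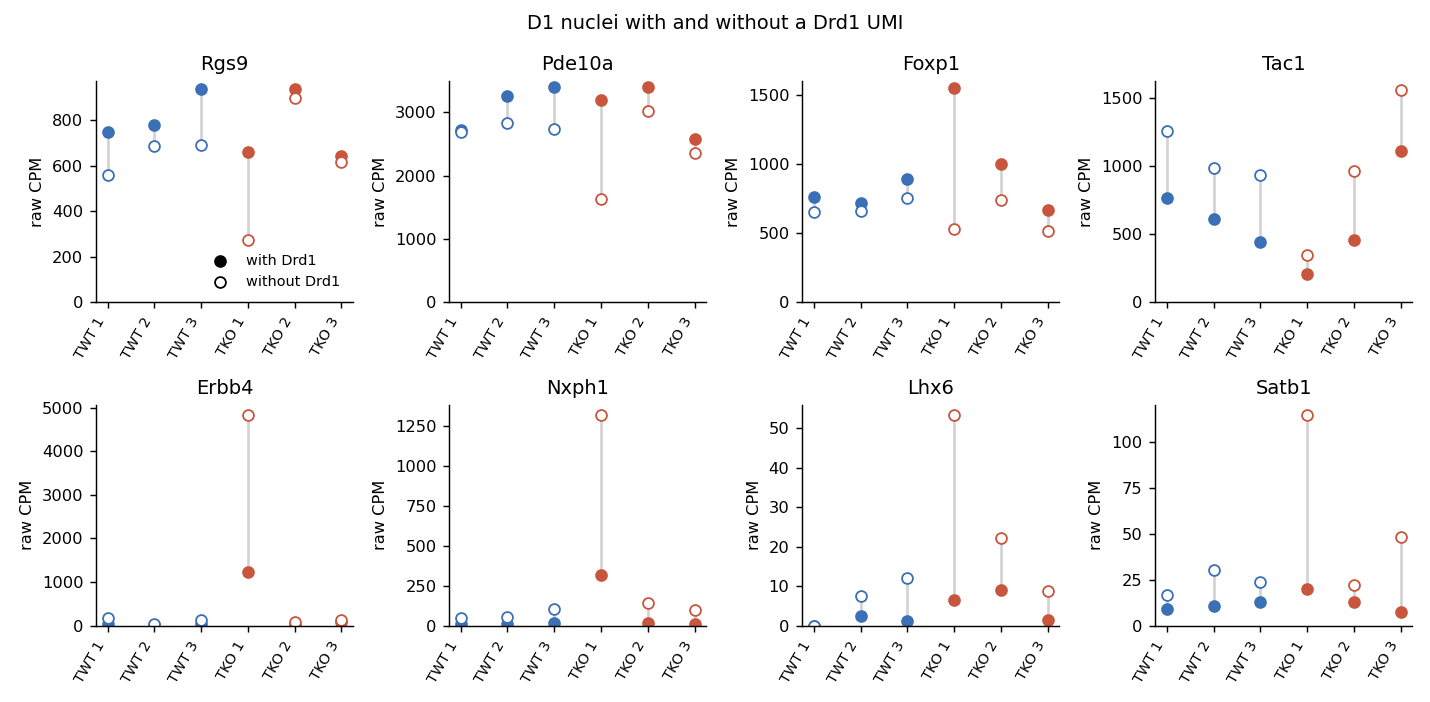
Each panel gives 1 gene's level (raw CPM of the summed nuclei, linear axis) in D1 nuclei with at least 1 Drd1 UMI (filled) and without (open) in the 6 libraries (blue wild type, red knockout). Erbb4, Nxph1, Lhx6 and Satb1 are highest in the nuclei of knockout replicate 1 without Drd1 (4825, 1316, 53.3 and 115), and Rgs9, Pde10a and Foxp1 are lower in them than in its nuclei with Drd1.

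The comparison of D1 with D2 nuclei asked what else separated the 2 pathways in these brains. D1 nuclei were higher in the transcription factors Isl1 and Ebf1, the growth factor gene Mdk, the adhesion gene Cntnap3 and the mitochondrial serine carrier gene Sfxn1. They were lower in the orphan receptor gene Gpr52, in Upb1, which acts in pyrimidine breakdown, and in the adenosine-handling genes Adk and Nt5e. Of 9314 genes outside the rule, 191 (2.05%) were higher and 244 (2.62%) lower in D1 nuclei (edgeR quasi-likelihood test with the mouse as a block, Benjamini-Hochberg adjusted p under 0.05), together 4.67%. For 764 genes (8.20%) the direction was the same in all 6 libraries. Without SwDI/TKO replicate 1 the counts were 191 (2.06%) and 220 (2.38%), and 325 of the 435 calls were shared in direction. With a Drd1 UMI required they were 135 and 187. DESeq2 called 71 and 93. Without the mouse as a block 10 and 8 were called.

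Among known direct pathway genes, Isl1 encodes a LIM homeodomain factor that is needed for the direct pathway fate. Its level in D1 nuclei was 43.8, 39.6 and 46.6 normalized CPM (scaled by TMM factors) in the wild-type mice and 24.6, 62.2 and 45.5 in the knockouts. In D2 nuclei it was at 0 in 5 libraries and at 2.39 in knockout replicate 3. D1 nuclei were higher in 6 of 6 libraries, with no overlap (log2 fold 5.85 ± 0.35 SE, edgeR adjusted p = 1.52e-15). The fold ran from 5.54 to 8.36 leaving out 1 library each, wider than that SE, and was 5.76 without knockout replicate 1. The order of Isl1 and Ebf1 by fold turned without that library and with a Drd1 UMI required (5.31 for Isl1 and 6.23 for Ebf1). Isl1 lies at chr13:116298281-116309689 in mm10.

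Ebf1, a factor of D1 neuron differentiation at chr11:44617317-45008091 (overlapped by Gm12158), was the more abundant of the pair in D1 nuclei. Its level there was 298, 393 and 272 normalized CPM in the wild-type mice and 182, 348 and 142 in the knockouts, against 10.7, 3.93 and 3.40 and 27.4, 2.12 and 4.79 in D2 nuclei. The D2 nuclei of knockout replicate 1 were the highest D2 value, and the classes did not overlap (log2 fold 5.01 ± 0.21 SE, edgeR adjusted p = 6.48e-20; 5.93 without that library). Mdk, which encodes midkine, had the smallest p of all genes tested: 108, 139, 136, 24.6, 152 and 82.7 normalized CPM in D1 nuclei of SwDI/TWT replicates 1 to 3 and SwDI/TKO replicates 1 to 3, and 0 to 8.55 in D2 nuclei (log2 fold 5.12 ± 0.21 SE, edgeR adjusted p = 4.64e-20). Cntnap3, a contactin-associated adhesion protein, ranged from 41.5 to 166 in D1 and from 0 to 8.44 in D2 nuclei, with the highest values of both classes in knockout replicate 1.

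Sfxn1 lies beside Drd1. Drd1 occupies chr13:54051183-54055705 on the minus strand and Sfxn1 chr13:54071869-54108342 on the plus strand, so that their annotated starts are 16164 bases apart and they are read away from each other. Sfxn1 was at 174, 164 and 143 normalized CPM in D1 nuclei of the wild-type mice and 87.1, 192 and 125 in the knockouts, against 85.5, 51.1, 35.1, 51.7, 53.0 and 53.2 in D2 nuclei in the same order. It was higher in D1 nuclei of 6 of 6 mice (log2 fold 1.44 ± 0.11 SE, edgeR adjusted p = 3.35e-12; 1.56 where nuclei had to hold Drd1). Its D2 level was well above 0, unlike that of Isl1.

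**Figure D3:**
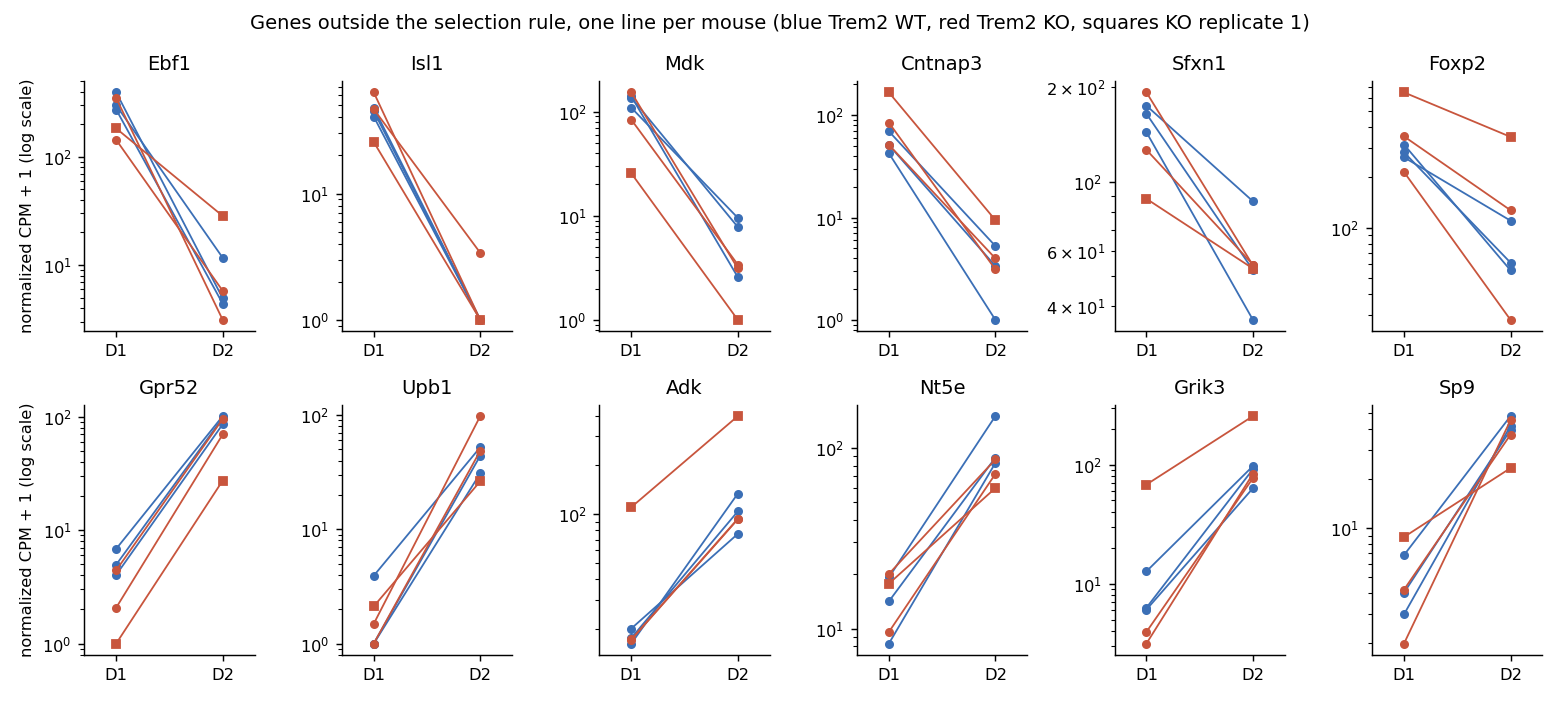
Each line joins the D1 and D2 nuclei of 1 mouse for a gene the rule did not use (normalized CPM + 1, log axis; blue wild type, red knockout, squares knockout replicate 1). All 6 lines fall from D1 to D2 for Ebf1, Isl1, Mdk, Cntnap3, Sfxn1 and Foxp2 and rise for Gpr52, Upb1, Adk, Nt5e, Grik3 and Sp9.

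Of 15 listed direct pathway genes outside the rule, 11 were abundant enough to test. Of these 8 were higher in D1 nuclei, among them Isl1, Ebf1, Sfxn1, Asic4, Cntnap3, Lingo2 and Reln, and 1 was lower (Gnas). Over all genes 2.05% were higher and 2.62% lower. The list's median log2 fold was 1.44, beside -0.005 over all genes tested. The list was chosen with earlier results of these data known, so its counts are no independent check. Chrm4, the M4 muscarinic receptor, was too low to test, at 0.929 to 21.3 raw CPM in D1 and 0 to 3.29 in D2 nuclei. Gnas, the general stimulatory G protein subunit, was lower in D1 nuclei of 5 of 6 mice (log2 fold -0.50 ± 0.12 SE, edgeR adjusted p = 0.00567). The call was lost without knockout replicate 3 (-0.36), with a Drd1 UMI required and with DESeq2.

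Of 15 listed indirect pathway genes, 13 were tested, 12 were lower in D1 nuclei and none was higher, with a median log2 fold of -1.79. Over all genes 2.62% were lower and 2.05% higher. This list too was chosen with earlier results of these data known. Gpr52, a receptor coupled to cyclic AMP production, was at 5.84, 3.96, 3.04, 0, 1.07 and 3.43 normalized CPM in D1 nuclei and at 100.4, 96.7, 85.0, 26.4, 68.8 and 94.5 in D2 nuclei (log2 fold -4.74 ± 0.20 SE, edgeR adjusted p = 6.48e-20). Knockout replicate 1 was the lowest library in both classes. Upb1 was at 0 in 3 libraries of D1 nuclei and at most 2.92 in the others, against 25.3 to 96.9 in D2 nuclei (log2 fold -6.33 ± 0.32 SE). Its fold ran from -7.05 to -5.70 leaving out 1 library each and was -8.38 with a Drd1 UMI required. The zinc finger factor Sp9, needed for D2 neurons, was at 0.979 to 7.82 against 22.2 to 47.0 (-3.58 ± 0.28 SE).

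Nt5e, the ecto-enzyme that makes adenosine from AMP, was at 13.1, 7.26, 18.2, 16.7, 8.57 and 19.1 normalized CPM in D1 and 87.6, 81.8, 149.5, 59.1, 71.0 and 85.5 in D2 nuclei (log2 fold -2.64 ± 0.15 SE, edgeR adjusted p = 1.11e-15). Adk, the kinase that removes adenosine, was at 15.2 to 19.0 in D1 nuclei of 5 libraries and 109 in knockout replicate 1, and lower than in D2 nuclei of the same mouse in 6 of 6 (-2.32 ± 0.12 SE). The adenosine receptor gene Adora2a was part of the rule. The subunits of the nitric oxide receptor guanylyl cyclase, Gucy1a1 and Gucy1b1, had log2 folds of -1.32 ± 0.09 and -0.66 ± 0.10 SE, lower in D1 nuclei of 6 of 6 mice each.

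**Figure D4:**
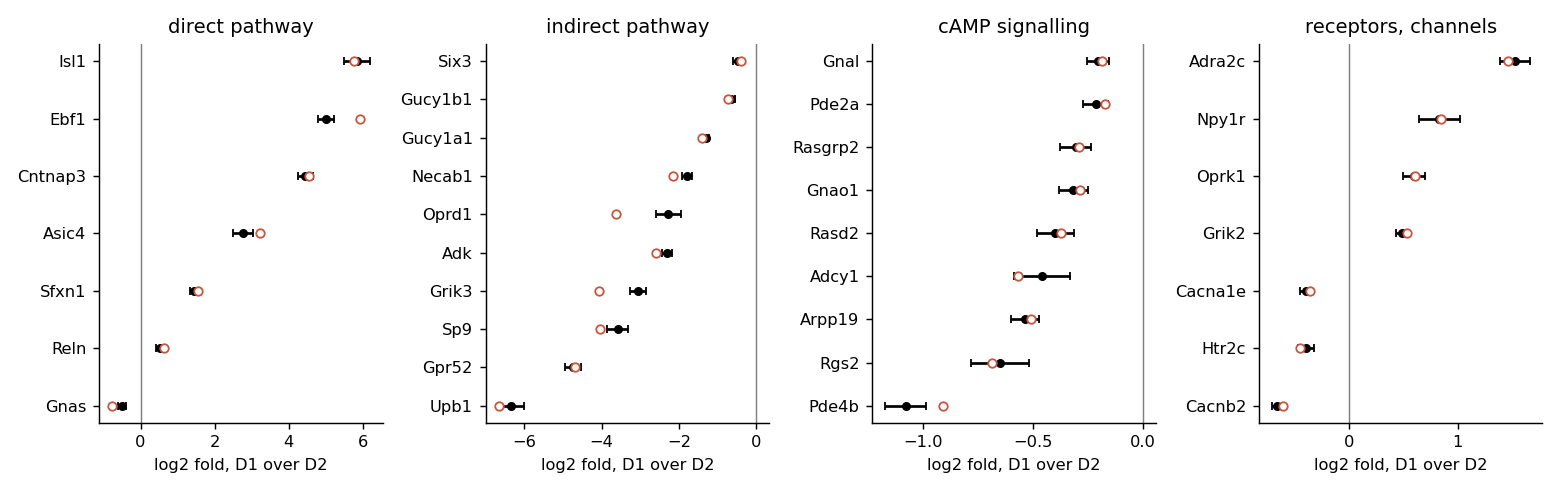
Points give the log2 fold of D1 over D2 nuclei for named genes. Filled points are the edgeR fit over 6 mice, with an SE derived from its F value, and open points the fit without knockout replicate 1. Folds of the direct and indirect pathway genes reach 5.85 (Isl1) and -6.33 (Upb1), while those of the cyclic AMP genes lie between -1.08 (Pde4b) and -0.20 (Gnal).

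The machinery of dopamine and cyclic AMP signalling outside the rule differed by smaller amounts. Of 31 listed genes 29 were tested, and 10 were lower and none higher in D1 nuclei (median log2 fold -0.14), against 2.62% lower among all genes. Without knockout replicate 1 there were 11 lower and 1 higher. Pde4b, a cyclic AMP phosphodiesterase, was at 27.1 to 58.4 normalized CPM in D1 nuclei of 5 libraries and 757 in knockout replicate 1, and lower than in D2 nuclei of 6 of 6 mice (log2 fold -1.08 ± 0.09 SE; -0.91 without it). Arpp19, a regulator of protein phosphatase 2A, had a log2 fold of -0.54 ± 0.06 SE. Gnal, Gnao1, Rgs2, Pde2a, Adcy1, Rasgrp2 and Rasd2 were also called lower, but DESeq2 called none of these 7. Of them Gnal was lost without SwDI/TWT replicate 3 (-0.19), Rgs2 without SwDI/TKO replicate 2 (-0.34), Pde2a without SwDI/TKO replicates 2 or 3 and Adcy1 without any 1 of 5 libraries.

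Transcription factors went both ways, beside 2.05% of all genes higher and 2.62% lower. Of 20 tested from a list of 25, 4 were higher (Foxp2, Isl1, Ebf1 and Pbx3) and 5 lower (Foxp1, Meis2, Sp9, Six3 and Zfhx3) in D1 nuclei. Six3 was not called without SwDI/TWT replicate 3 or SwDI/TKO replicate 3, or with DESeq2. Foxp2 was at 263, 282, 314, 646, 351 and 214 normalized CPM in D1 nuclei and 109, 60.5, 54.4, 349, 126 and 26.9 in D2 nuclei, with the highest values of both classes in knockout replicate 1 (log2 fold 1.75 ± 0.14 SE, edgeR adjusted p = 5.14e-12; 2.09 without it). Onecut2, which was not on a list, had a log2 fold of 1.0 ± 0.08 SE and was higher in D1 nuclei of 6 of 6 mice.

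Receptors for other transmitters were also divided. The kappa opioid receptor Oprk1, which binds dynorphin, was higher in D1 nuclei of 6 of 6 mice (log2 fold 0.60 ± 0.10 SE, edgeR adjusted p = 0.000142), while the delta receptor Oprd1, which binds enkephalin, was lower (-2.27 ± 0.33 SE; -3.62 without knockout replicate 1, where D1 nuclei were at 26.8 normalized CPM against 0 to 2.02 elsewhere). The alpha-2C adrenergic receptor Adra2c was at 97.9, 113.5, 60.7, 25.7, 64.3 and 114.5 normalized CPM in D1 and 3.17 to 54.4 in D2 nuclei, and higher in D1 nuclei of each mouse (1.53 ± 0.14 SE, adjusted p = 9.11e-11). Npy1r, a neuropeptide Y receptor, was higher (0.83 ± 0.19 SE) and the serotonin receptor Htr2c lower (-0.40 ± 0.07 SE), and DESeq2 called Htr2c but not Npy1r. In all, 3 of 13 tested from the 21 listed receptors were higher and 2 lower, beside 2.05% and 2.62% of all genes.

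Kainate receptor subunits split between the pathways. Grik3 was at 11.7, 5.28, 5.06, 67.0, 2.14 and 2.94 normalized CPM in D1 and 96.2, 90.4, 62.3, 254.3, 82.6 and 76.0 in D2 nuclei (log2 fold -3.06 ± 0.21 SE, edgeR adjusted p = 5.35e-14; -4.07 without knockout replicate 1, the highest library in both classes). Grik2 was higher in D1 nuclei of 6 of 6 mice (0.48 ± 0.06 SE). Of 25 glutamate receptor and scaffold genes tested from a list of 26, 4 were higher (Grin3a, Grik1, Grik2 and Shank1) and 3 lower (Gria3, Grik3 and Grm3), beside the same shares of all genes, 2.05% and 2.62%. Without knockout replicate 1, Grin3a was not called (0.36) and Grik1 was not abundant enough to test. DESeq2 called Grik2 but not Grin3a, Grik1 or Shank1. Of 35 ion channel genes tested, 3 were lower and none higher, beside 2.62% and 2.05% of all genes. The 3 were Kcnip4, Cacna1e and the calcium channel subunit Cacnb2 (-0.67 ± 0.05 SE). Kcnip4 was lost without SwDI/TWT replicates 2 or 3, with a Drd1 UMI required and with DESeq2. Of 18 GABA system genes 1 was lower (Gabra4), a share near the 4.67% of all genes called in either direction. This call was lost without any 1 of 4 libraries, with a Drd1 UMI required and with DESeq2. SwDI/TKO replicate 1 was among the 4, and without it Gad1 was called.

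The striosome list had no lean over its members, with 6 of 12 tested higher and a median log2 fold of 0.01. Of 12 tested from 15 striosome genes, 5 were higher (Sema5b, Foxp2, Khdrbs3, Sst and Asic4) and 1 lower (Bach2) in D1 nuclei, beside 2.05% and 2.62% of all genes, and without knockout replicate 1 the counts were 3 and 0. Foxp2 and Asic4 are counted above too. Sst is also on the list of interneuron markers, and its log2 fold of 1.08 was 0.70 without knockout replicate 1. Vip, of that list too, was called lower in D1 nuclei (-3.94). Sema5b, Khdrbs3 and Epha4 were also lost without SwDI/TWT replicate 3 and with DESeq2. Of 12 tested from 13 matrix genes, 4 were lower (Epha4, Rasgrp2, Brinp3 and Necab1), 3 of them also without replicate 1, and none was higher with it. Necab1, a calcium-binding protein, had a log2 fold of -1.79 ± 0.13 SE.

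Activity-regulated genes were not higher in D1 nuclei. Of 12 tested from 21, all had log2 folds under 0 (median -0.50). Beside 2.62% of all genes called lower, 2 of them were, Junb (-0.46 ± 0.12 SE) and Npas4 (-0.58 ± 0.16 SE), both lower in D1 nuclei of 6 of 6 mice. Neither was called by DESeq2, with a Drd1 UMI required, or without SwDI/TKO replicate 2. Junb was also lost without SwDI/TWT replicate 3, and Npas4 without SwDI/TWT replicate 2 or SwDI/TKO replicate 3. Without SwDI/TKO replicate 1, 10 of 11 were under 0 and 3 were called, beside 4.44% of all genes called in either direction. All 21 genes made up 0.0590%, 0.0534% and 0.0465% of D1 UMIs in the wild-type mice and 0.0290%, 0.0594% and 0.0666% in the knockouts. The genotypes overlapped (0.0529% ± 0.00626 against 0.0516% ± 0.0200, SD, n = 3 each; 2-sided exact permutation test, p = 1.0).

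The comparison of genotypes asked whether D1 nuclei of Trem2 knockout and wild-type mice differed. No gene passed: edgeR called 0 of 9527 genes (0%), with 377 (3.96%) at an unadjusted p under 0.05, and DESeq2 called 0 with 397. The count was also 0 without SwDI/TKO replicate 1 and with a Drd1 UMI required. For 1003 genes (10.5%) the 3 knockout libraries did not overlap the 3 wild-type ones. No listed gene group had a called member. In data simulated from these sums, the same test recovered 2.17% of genes given a log2 fold of 1 in either direction. For genes given a log2 fold of 2 it recovered 43.7%. The 0 calls therefore do not show that the genotypes were alike.

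The smallest p-values among lower genes belonged to 2 class I histocompatibility genes of the H2-T region on chromosome 17, the chromosome of Trem2. H2-T22 lies at chr17:36037128-36042747, H2-T24 at chr17:36005695-36020560 and Trem2 at chr17:48346401-48354147. Ppp2r5d, named below, lies nearer to Trem2, at chr17:46682991-46705111. The part of position in these values was not tested. H2-T22 was at 19.1, 11.2 and 11.5 normalized CPM in wild-type D1 nuclei and 1.13, 2.19 and 3.00 in the knockouts, from 11 to 17 against 1 to 6 UMIs (log2 fold -2.51 ± 0.50 SE, edgeR adjusted p = 0.824). H2-T24 was at 16.2, 9.92 and 16.7 against 3.38, 1.1 and 0.5, from 11 to 16 against 1 to 3 UMIs (-3.24 ± 0.64 SE, adjusted p = 0.824). The groups did not overlap for either gene, which held for 10.5% of all genes tested, and neither passed the test. Both are uncertain, since related H2-T genes could share reads and A930015D03Rik overlaps both.

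Cck, the cholecystokinin precursor and a peptide mainly of cortical neurons and interneurons, was at 73.5, 42.3 and 43.9 normalized CPM in the wild-type mice and 27.1, 18.6 and 22.5 in the knockouts (log2 fold -1.21 ± 0.34 SE, adjusted p = 0.824 in edgeR). Sf3b3, a splicing factor subunit, was at 181, 173 and 175 against 84.6, 96.5 and 121 (-0.80 ± 0.27 SE). Hmgb3 and Ppp2r5d, a chromatin protein and a phosphatase 2A subunit, had log2 folds of -1.16 and -0.91. The groups did not overlap for any of the 4 genes, which held for 10.5% of all genes tested, and none passed the test.

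Among genes with higher values in the knockouts, Csrnp2, a nuclear protein gene, was at 1.47, 4.63 and 4.18 normalized CPM in the wild-type mice and 12.4, 14.2 and 13.0 in the knockouts (log2 fold 1.81 ± 0.44 SE, edgeR adjusted p = 0.824). Mccc2, a subunit of a leucine-degrading carboxylase, was at 8.82, 7.94 and 14.6 against 33.8, 28.5 and 23.5 (1.44 ± 0.37 SE). For Ptpn4, a tyrosine phosphatase, knockout replicate 1 was far above the rest, at 177 against 50.4 and 43.0 in the other knockouts and 20.6 to 25.8 in wild type (1.96 ± 0.57 SE; 0.99 without it). Uhmk1, a kinase gene, was at 5.22 to 11.8 in the wild-type mice and 14.7 to 32.0 in the knockouts.

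**Figure D5:**
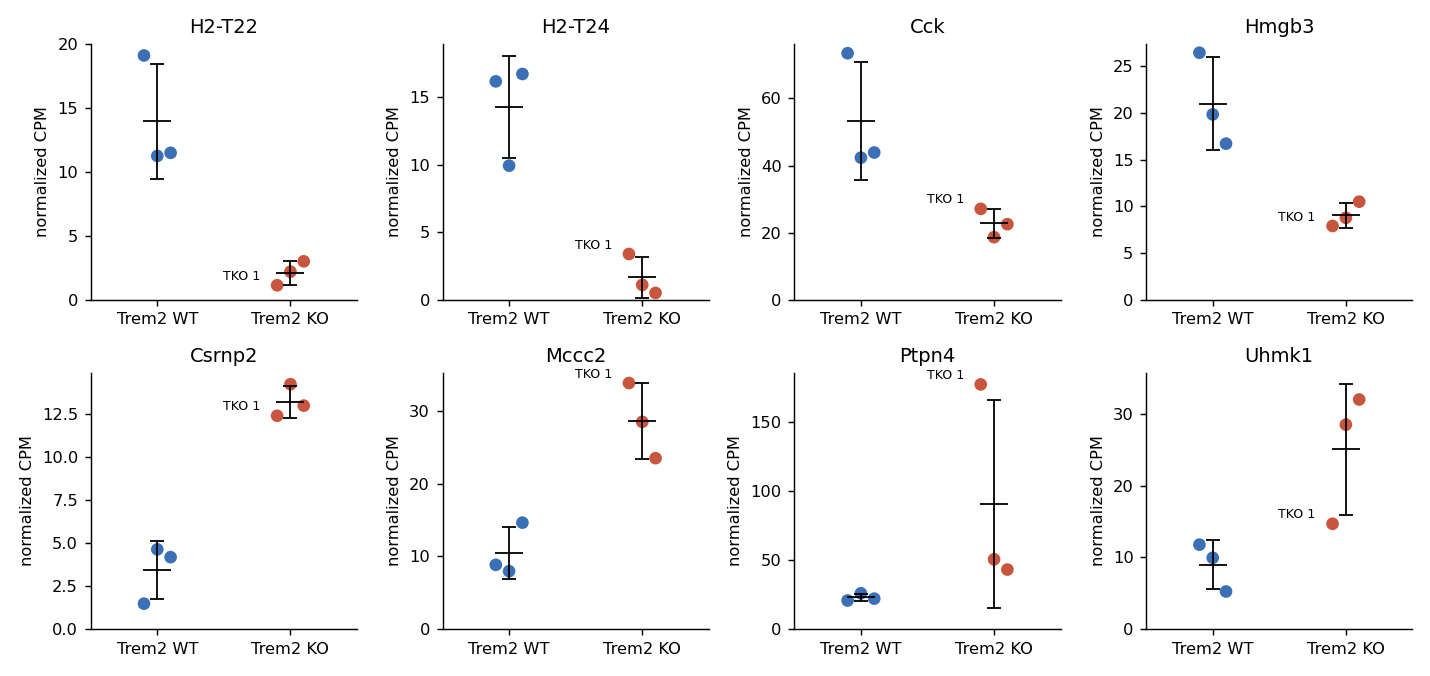
Points give normalized CPM in D1 nuclei of each mouse, with the mean and SD (n = 3 per genotype) for the 8 genes described, 4 lower and 4 higher in the knockouts. The genes were taken from those with the smallest p-values, so the lack of overlap in every panel is no further support. It held for 10.5% of all genes tested. Knockout replicate 1 is labelled, and no gene passes the test (edgeR adjusted p = 0.824).

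Gene groups gave no called members between genotypes, and several medians followed knockout replicate 1. Over all genes the median log2 fold was 0.06 with that library and 0.01 without it. The median of 18 GABA system genes was 0.59 and fell to 0.05 without it, that of 24 glutamate receptor genes was 0.53 and fell to 0.02, and that of 36 ion channel genes was 0.44 and fell to 0.03. Other medians rose without it: that of 13 mitochondrially encoded genes from 0.24 to 0.42 (12, then 13 higher) and that of 24 nuclear oxidative phosphorylation genes from 0.04 to 0.215 (14, then 22 higher). The median of activity-regulated genes turned from -0.14 (5 of 11 tested higher) to 0.30 (12 of 15 higher). None of these genes was called with or without that library.

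Mitochondrially encoded genes made up 1.11%, 1.5% and 0.622% of D1 UMIs in the wild-type mice and 0.739%, 1.11% and 2.28% in the knockouts, and the groups overlapped (2-sided exact permutation test, p = 0.6, adjusted p = 1.0). App was at 608, 413 and 462 normalized CPM in the wild-type mice and 706, 320 and 598 in the knockouts (log2 fold 0.13 ± 0.38 SE). Thy1 was at 419, 149 and 187 against 143, 106 and 365 (-0.29 ± 0.57 SE), high in wild-type replicate 1 and knockout replicate 3. The groups overlapped for both genes. The sequences shared with the human APP transgene and its Thy1 promoter could be counted under these mouse genes, and this was not tested.

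Whether the genotype effect differed between D1 and D2 nuclei was tested with an interaction term, each mouse being a block. Of 10345 genes 2 passed (0.0193%), Sgcd in the higher and Vip in the lower direction (0.00967% each), and neither did without SwDI/TKO replicate 1 or with DESeq2, which called 0. Sgcd, a sarcoglycan gene, was at 1232 normalized CPM in D1 nuclei of that library and 19.1 to 24.4 in the other 5. Vip, an interneuron peptide, was at 476 in its D2 nuclei and 0 to 14.6 in D1 nuclei of the 6 libraries.

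The mu opioid receptor gene Oprm1 marks striosomes, patches of the striatum that some D1 neurons belong to. It was detected in 8%, 3.09% and 3.57% of D1 nuclei in the wild-type mice and 29.6%, 6.04% and 4.96% in the knockouts, or 18, 15, 12, 40, 16 and 25 nuclei. After thinning to 1500 UMIs the shares were 4.69%, 1.72%, 2.51%, 8.96%, 3.86% and 1.22%. Knockout replicate 1 was the highest library on both scales. Nuclei with an Oprm1 UMI held medians of 3006.5, 2866, 3452, 8378.5, 3419.5 and 3699 UMIs in the same order. Those without held 2807, 2999, 2896, 7202, 3179 and 3094. The split is by detection, so a nucleus without an Oprm1 UMI is not shown to lie outside striosomes.

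Between D1 nuclei with and without an Oprm1 UMI of the same mice, 12 of 6512 genes were higher (0.184%) and 12 lower (0.184%; edgeR, mouse as a block). The counts were 1 (0.0185%) and 5 (0.0923%) without SwDI/TKO replicate 1, and DESeq2 and the fit without the block called 0. No striosome gene was called among 9 tested of 15, and Necab1 of the matrix list was higher. Htr1f, a serotonin receptor, was lower in Oprm1-positive nuclei of 6 of 6 mice, at 63.5, 40.8, 47.5, 144, 54.9 and 43.5 normalized CPM against 89.8, 81.5, 114, 331, 95.5 and 100 (log2 fold -1.1 ± 0.24 SE, adjusted p = 0.0083). Khdrbs2, an RNA-binding splicing regulator, was higher in 6 of 6 (0.82 ± 0.20 SE, adjusted p = 0.0264 in edgeR). Both calls were lost without SwDI/TKO replicate 1 (-0.96 and 0.90), and that of Khdrbs2 also without SwDI/TWT replicate 2 or either other knockout.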

How the data were processed

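Nuclei from frontal lobe tissue were taken through droplet-based 3′ RNA chemistry, 1 library per mouse, per the labels' protocols. The authors deposited raw UMI counts of 32285 genes in each barcode, made with Cell Ranger (7.0.0 for SwDI/TKO replicate 1, 6.1.2 otherwise, per the file headers) on mm10, per the submitters' processing notes. The sources used here do not say whether intronic reads were counted. Replicates were numbered in accession order and pair nothing across genotypes. The member rule and the gene lists were chosen with earlier results of these data known.

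Counts of member nuclei were summed per mouse (661460 to 1682232 UMIs for D1), and mice were the replicates. Raw CPM are shares of those sums, and normalized CPM are scaled by TMM. Tests used edgeR 4.0.16 in R 4.3.3 (glmQLFit, glmQLFTest, filterByExpr, 2-sided, Benjamini-Hochberg adjustment over all genes tested, threshold 0.05). The rule's 18 genes were left out of the tests between classes. D1 with D2 nuclei, and Oprm1-positive with -negative nuclei, were compared with the mouse as a block. An SE given with an edgeR log2 fold is the absolute fold divided by the square root of the test's F value. This SE is thus derived from the test, and it can understate the spread where 1 class is near 0, as for Isl1. DESeq2 1.42.0 was an alternative. Scripts were tested on simulated data.

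Named genes were those of the rule, Trem2, App, Thy1 and Oprm1, the 10 smallest p-values in each direction of each test (for classes within a mouse, with the same direction in all 6 libraries) and up to 4 per list. Other genes named were chosen after their values had been seen, and some that met the rule are not reported here. Doublets were called with Scrublet (scanpy 1.11.5, expected rate 6%), which marked 2.18% to 6.67% of D1 nuclei, and were kept in the main analysis. Where its automatic threshold marked under 0.5% of a library, the highest 6% of scores were taken. Oligodendrocyte nuclei held at least 5 UMIs of oligodendrocyte markers, no UMI of Slc17a7 or Slc17a6, and were in neither class. Gene positions are from GENCODE vM21 on mm10, matched for 99.8% of gene identifiers. Promoters are from RefSeq, GRCm38.p6, without a test: 140 of 191 genes higher in D1, 183 of 244 lower and 7236 of 9314 tested had one, of which 25.7%, 25.1% and 29.7% held TGACG.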

Additional observations from a re-analysis of the deposited data

Results flagged for a closer look

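The effect of genotype differed between D1 and D2 nuclei for 2 genes, by the test of the difference itself (edgeR interaction term with the mouse as a block). For Sgcd the knockout effect was 1.81 higher in D1 than in D2 nuclei on the log2 scale (adjusted p = 0.0238). It rested on SwDI/TKO replicate 1, at 1232 normalized CPM in D1 and 582 in D2 nuclei against 15.0 to 67.1 over both classes in the other 5 libraries, and was 0.61 and not called without it. It was not called without SwDI/TWT replicate 2 (1.70) or 3 (1.54) either. For Vip the difference was -3.47 (adjusted p = 0.0238). Vip was at 103, 2.36, 60.2, 476, 4.28 and 113 normalized CPM in D2 nuclei of wild-type replicates 1 to 3 and knockout replicates 1 to 3, and the call was lost without SwDI/TWT replicate 2 (-2.32) and without SwDI/TKO replicate 1 (-2.69). It was also lost with doublets removed, at no more than 1% mitochondrial UMIs, with at least 1000 genes and with DESeq2. That of Sgcd was also lost with the stricter member rule, with at least 1000 genes, with Drd1 required and with DESeq2. In SwDI/TKO replicate 1, 11.8% of D2 nuclei held a Vip UMI, against 0.654% to 2.86% elsewhere.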

How the results depend on the processing

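No paired analysis was possible because the labels give no replicate numbers that pair mice across genotypes. For D1 against D2 nuclei the mouse was the block: without it 18 genes were called in place of 435, and for Oprm1 0 in place of 24. The count for D1 against D2 was 257 at no more than 1% mitochondrial UMIs, 164 with DESeq2 and 315 to 431 leaving out 1 library each. The Oprm1 count was 9 with a stricter member rule, 8 at no more than 1% mitochondrial UMIs, 9 with a Drd1 UMI required, 78 without the low-count filter, 0 with DESeq2 and 6 to 21 leaving out 1 library each. The interaction count was 4 with the stricter rule, 0 with at least 1000 genes, 1 with doublets removed, 0 with Drd1 required, 13 without the filter, 0 with DESeq2 and 0 to 26 leaving out 1 library. The genotype count was 0 under all 14 alternatives run. The knockout difference in the D1 share of kept nuclei, -0.08 percentage points, was 0.514 with the stricter rule, 0.187 with at least 1000 genes, 0.801 after thinning to 1500 UMIs, 0.0585 with Drd1 required and -2.85 to 2.46 leaving out 1 library each. That in the D1 share of D1 plus D2 nuclei was -3.27 and stayed negative, at -9.47 after thinning, -5.87 with the stricter rule, -12.4 with Drd1 and Drd2 required and -5.95 to -1.61 leaving out 1 library. The difference in activity-regulated UMIs (-0.00131 percentage points) was 0.000751 with Drd1 required and -0.00878 to 0.0100 leaving out 1 library, and that in mitochondrial UMIs -0.150 to 0.621. Between genotypes App ranged from -0.11 to 0.38 and Thy1 from -1.01 to 0.29 (log2) leaving out 1 library. For the genes named between D1 and D2 nuclei, 629 values under an alternative kept direction and call and 124 kept the direction only. For those named by Oprm1 these numbers were 38 and 37. The causes were not tested.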
